A study of Rattus norvegicus with 12 samples.

Results

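Transcripts that mark macrophages and other leukocytes were compared between left ventricles of VEGF-B transgenic (TG) and wildtype (WT) rats. The genes were 40 markers of macrophages, phagocytes, lymphocytes and leukocytes in general, and every array probe named for one of them was a member. Of the 40 genes, 35 had a named probe, 1 probe each, among the 13336 genes named on the array. The other 5, Cd68, Csf1r, Itgb2, Lyz2 and Msr1, had no probe of that name and were not analysed here. One gene was listed under both an older symbol and a newer one (Emr1 and Adgre1) and was counted once.

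The hearts came from 12 male rats of Wistar background aged 2 months. The 6 TG rats carried a VEGF-B transgene under the cardiomyocyte promoter of alpha-myosin heavy chain, so that cardiomyocytes were the cells made to express it, and the 6 WT rats were described as their littermates. The labels name no further treatment. RNA of each left ventricle was hybridized to 1 Illumina RatRef-12 BeadChip array, on which bead intensity was read for each probe. The labels do not give the species of the transgene, and neither slide nor scan time, so no batch could be examined.

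The heart holds resident macrophages between its cardiomyocytes and vessels, where they clear debris and dying cells, present antigen and shape vessels. Macrophages sense immune complexes through Fc receptors, whose signal passes through small adaptor proteins with tyrosine activation motifs. They kill and digest ingested material with the phagocyte NADPH oxidase and lysosomal proteases. Their survival depends on the growth factor CSF-1 and its receptor, and much of their gene expression on the transcription factor PU.1. VEGF-B is a ligand of VEGF receptor-1, which monocytes and macrophages can also carry beside endothelial cells.

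A probe was called detected on an array at a detection p under 0.05 against the negative control beads. Detected probes numbered 8820 to 9655 per array in TG hearts and 8452 to 9251 in WT hearts. All 11 cardiomyocyte marker genes on the array had a probe detected on all 12 arrays, as the tissue label implies. Normalized log2 signal lay near 5.20 at background, and the lowest log2 signal among detected probes was between 5.83 and 6.05 on the 12 arrays. Probes differ in brightness for the same amount of RNA, so signals are compared between hearts and never between genes.

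Of the 35 member probes, 15 were detected on all 12 arrays, and 7 on none. The 19 probes found in 6 or more of the 12 hearts entered a limma fit together with all other such probes, 9054 in total. Of these 19, Fcgr3a was detected in 5 TG hearts and 1 WT heart, Tyrobp in 6 TG and 2 WT hearts, Clec4a3 in 6 TG and 4 WT hearts, and Cd37 in 6 TG and 5 WT hearts. Fcgr3a, Tyrobp and Clec4a3 met the requirement mainly through the TG hearts.

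**Figure D1:**
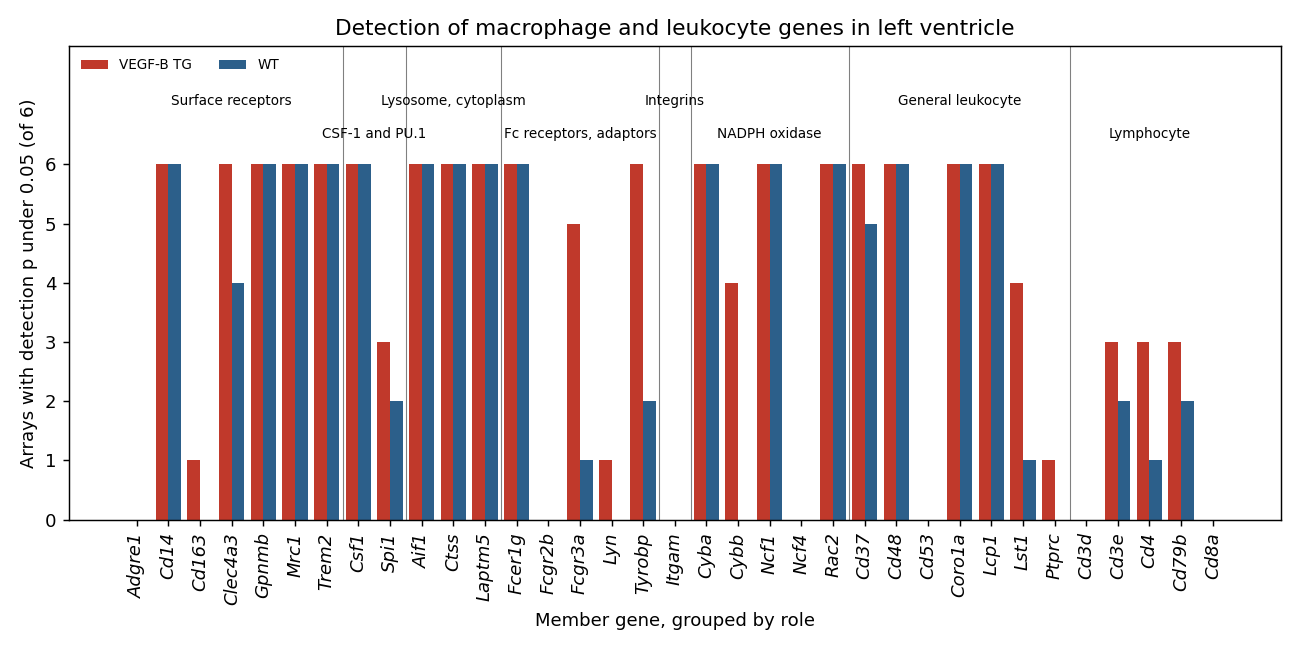
Number of arrays (of 6 per group) on which each of the 35 member probes had a detection p under 0.05, in VEGF-B TG hearts (red, left bar) and WT hearts (blue, right bar), with the genes grouped by role and sorted by name within a role. Of the members, 15 reached 6 arrays in both groups and 7 reached none, and Cybb was detected on 4 TG arrays and no WT array.

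TG hearts were set against WT hearts to learn which cardiac transcripts change with VEGF-B overexpression in cardiomyocytes. Of the 19 tested members, 12 were higher in TG hearts at an adjusted p under 0.05, and 0 were lower. Over all 9054 tested probes 11.6% were higher and 10.3% lower. The 12 differences lay between 0.27 and 0.95 on the log2 scale. The median difference was 0.38 over the 19 members and -0.01 over all tested probes. At an unadjusted p under 0.05, 13 of the 19 members differed, beside 3123 of all 9054 tested probes.

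Among the 15 members detected on every array, whose testing did not depend on either group, 9 were higher, beside 11.7% of the 7471 probes detected on every array. Without any requirement on detection, 12 of all 35 members were higher and 0 lower, beside 4.49% of 22517 probes higher, and 6 of the 35 had all TG hearts above all WT hearts, beside 2.57% of those probes. Among the 19 tested members, 5 had all 6 TG hearts above all 6 WT hearts, and 0 had all TG hearts below them. Over all tested probes such separation was found in 5.74% with TG above and 5.06% with TG below. In bulk tissue, more cells of a type and more RNA per cell cannot be told apart.

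**Figure D2:**
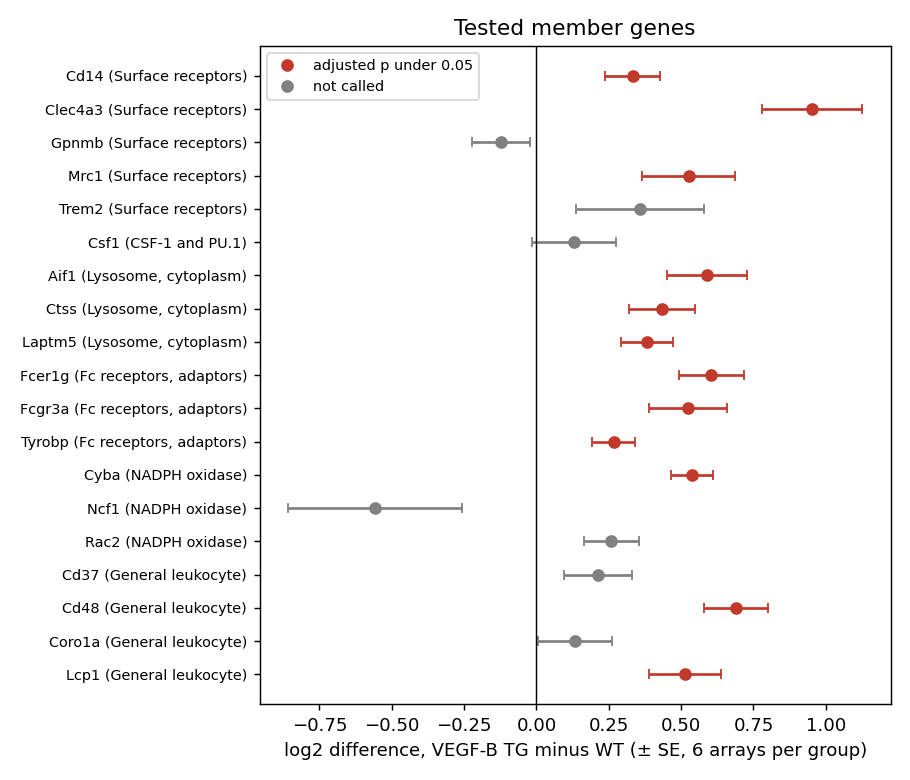
Difference of normalized log2 signal, VEGF-B TG minus WT, for the 19 tested members (points) with the standard error of the limma fit (bars, 6 arrays per group). Red points passed an adjusted p of 0.05 and grey points did not. The 12 red points lie between 0.27 and 0.95, and Gpnmb and Ncf1 are the members left of 0.

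Promoters were read because many of these genes are known targets of PU.1, which binds a purine-rich GAGGAA core. Of the 40 genes, 25 had a promoter in the RefSeq table of the rat genome (build GRCr8), covering 250 bases before and 50 after the start. The core, GAGGAA or its reverse complement TTCCTC, lay in 18 of these 25 promoters (72.0%) and in 27.6% of all 33469 promoters of the same length. Among the 8 members that were higher and had a promoter in the table, 6 held the core, as did 12 of the other 17. The other 17 include genes that had no probe or were not tested, so they are not a set of unchanged genes. These matches describe letters only. The 110 bases before the start are shown for 4 of the 5 higher members with the core in that window (Cd14, with GAGGAA at -105, is not printed) and for Cd48 and Cyba, which had no core in the whole promoter. Each is written 5′ to 3′ on the strand of the gene, with the core in capitals.
Ctss (chr2:185775286-185775395, plus strand): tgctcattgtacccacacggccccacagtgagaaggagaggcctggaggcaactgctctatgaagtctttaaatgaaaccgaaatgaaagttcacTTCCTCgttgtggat
Fcgr3a (chr13:85782526-85782635, plus strand): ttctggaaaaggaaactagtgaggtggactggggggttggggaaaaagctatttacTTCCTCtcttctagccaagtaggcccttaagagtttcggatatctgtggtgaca
Laptm5 (chr5:148371770-148371879, plus strand): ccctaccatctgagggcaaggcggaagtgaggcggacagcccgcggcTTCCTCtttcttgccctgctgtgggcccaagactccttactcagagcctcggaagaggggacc
Mrc1 (chr17:82157615-82157724, plus strand): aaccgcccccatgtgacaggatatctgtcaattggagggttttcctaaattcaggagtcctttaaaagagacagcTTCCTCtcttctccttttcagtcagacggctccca
Cd48 (chr13:86717884-86717993, plus strand): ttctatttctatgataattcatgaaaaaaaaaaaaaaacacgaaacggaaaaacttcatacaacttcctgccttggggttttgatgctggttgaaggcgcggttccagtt
Cyba (chr19:67404215-67404324, minus strand): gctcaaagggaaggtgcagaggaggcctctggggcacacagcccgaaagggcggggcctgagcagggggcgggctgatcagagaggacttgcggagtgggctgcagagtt
The core began 15 bases before the start in Ctss (position -15), at -35 in Mrc1, at -54 in Fcgr3a and at -63 in Laptm5, in each of these 4 as TTCCTC on the strand of the gene.

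Macrophage and monocyte receptors were higher in TG hearts in 3 of 5 tested cases, beside 11.6% of all tested probes. Clec4a3, a C-type lectin receptor of myeloid cells, showed the largest difference of the 19 members with this background correction. Its log2 signal was 6.40, 7.23 and 7.53 (lowest, median and highest) in TG hearts, against 5.84, 6.26 and 6.37 in WT hearts. Every TG heart lay above every WT heart, with a difference of 0.95 ± 0.17 (TG minus WT, log2 ± SE, a 1.94-fold change, adjusted p = 0.00132). Without background correction the same difference was 0.45, below that of Cd48 at 0.65, and 2 WT hearts were not above background for the Clec4a3 probe. Cd48 also led in the deposited log2 table and with normexp at an offset of 50. Clec4a3 belongs to a family of similar lectin genes, and whether the probe also binds their transcripts was not tested.

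Mrc1, the mannose receptor of tissue macrophages that some endothelial cells also make, read 6.76, 7.29 and 7.86 in TG hearts and 6.49, 6.69 and 7.13 in WT hearts. The groups overlapped, and 4 TG hearts lay above all WT hearts (difference 0.53 ± 0.16, 1.44-fold, adjusted p = 0.0289). This call was lost when TG replicate 2, 5 or 6 or WT replicate 1, 3, 4 or 5 was left out, with adjusted p up to 0.0649, and without the requirement on detection (adjusted p = 0.0657). Cd14, the co-receptor for bacterial lipopolysaccharide on monocytes and macrophages, read 6.74, 6.96 and 7.23 in TG hearts, against 6.49, 6.65 and 6.81 in WT hearts. Here too 4 TG hearts exceeded all WT hearts (0.33 ± 0.09, 1.26-fold, adjusted p = 0.0212). Without background correction both genes were still called, with differences of 0.27 for Mrc1 and 0.16 for Cd14.

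Of the other receptors, Trem2 and Gpnmb did not pass the test, and Cd163 and Adgre1 were not tested. Trem2, a lipid-sensing receptor of macrophages, ranged widely, at 6.80, 7.76 and 8.06 in TG hearts and 6.69, 7.28 and 7.71 in WT hearts. Although 4 TG hearts lay above all WT hearts, the remaining TG hearts lay among the lowest of all 12, and the difference was 0.36 ± 0.22 (adjusted p = 0.278). Gpnmb, a glycoprotein of lipid-laden macrophages, differed by -0.12 ± 0.10 (adjusted p = 0.416). Cd163, the hemoglobin scavenger receptor of resident macrophages, was detected in 1 TG heart and 0 WT hearts. Adgre1, an adhesion receptor used as a macrophage marker in mice, was detected on no array.

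Csf1, the macrophage growth factor, which fibroblasts and endothelial cells also make, was detected in all hearts. Its signal was 6.95, 7.34 and 7.59 in TG hearts and 6.76, 7.18 and 7.70 in WT hearts, fully overlapping, with a difference of 0.13 ± 0.15 (adjusted p = 0.569). Spi1, the gene of PU.1, was detected in 3 TG and 2 WT hearts and was not tested.

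All 3 tested lysosomal and cytoplasmic macrophage genes were higher, beside 11.6% of all tested probes. Aif1, an actin-binding protein widely used to stain macrophages, read 9.10, 9.75 and 10.02 in TG hearts, against 8.90, 9.10 and 9.27 in WT hearts. All TG hearts but replicate 1 lay above all WT hearts (0.59 ± 0.14, 1.50-fold, adjusted p = 0.00737). Ctss, the lysosomal protease cathepsin S that trims the class II invariant chain, read 8.64, 8.89 and 9.03 in TG hearts and 8.09, 8.46 and 8.83 in WT hearts. It overlapped through WT replicate 1, the highest of the WT hearts (0.43 ± 0.12, 1.35-fold, adjusted p = 0.0150). Laptm5, a lysosomal membrane protein of blood cells, read 7.61, 7.86 and 8.06 in TG hearts against 7.27, 7.43 and 7.68 in WT hearts, where 5 TG hearts exceeded all WT hearts (0.38 ± 0.09, 1.30-fold, adjusted p = 0.00732).

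Of 5 genes of Fc receptor signalling, 3 were tested and higher, beside 11.6% of all tested probes. Of these 3, only Fcer1g was detected in all 12 hearts, and Fcgr3a and Tyrobp entered the test through the TG hearts. Fcer1g encodes the common gamma chain, the activation-motif adaptor on which several Fc receptors depend for surface expression and signalling. It read 9.97, 10.38 and 10.69 in TG hearts and 9.66, 9.75 and 10.01 in WT hearts. The lowest TG value, that of replicate 1, lay just below the highest WT value, and the other 5 TG hearts lay above it (0.60 ± 0.11, 1.52-fold, adjusted p = 0.00150). Fcgr3a, a low-affinity IgG receptor that pairs with the common gamma chain, read 5.72, 6.34 and 6.60 in TG hearts and 5.57, 5.70 and 6.10 in WT hearts. Its WT signals lay near background, with 1 WT heart detected, and the measured difference was 0.52 ± 0.14 (adjusted p = 0.0127), or 0.25 without background correction.

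Tyrobp, the adaptor DAP12 that carries the signal of Trem2 and other myeloid receptors, read 6.02, 6.12 and 6.24 in TG hearts against 5.68, 5.86 and 6.01 in WT hearts. All TG hearts lay above all WT hearts, though narrowly, and 2 WT hearts were detected (0.27 ± 0.07, adjusted p = 0.0184, and 0.13 without background correction). The inhibitory IgG receptor gene Fcgr2b was detected on no array, and the tyrosine kinase gene Lyn in 1 TG heart and 0 WT hearts.

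**Figure D3:**
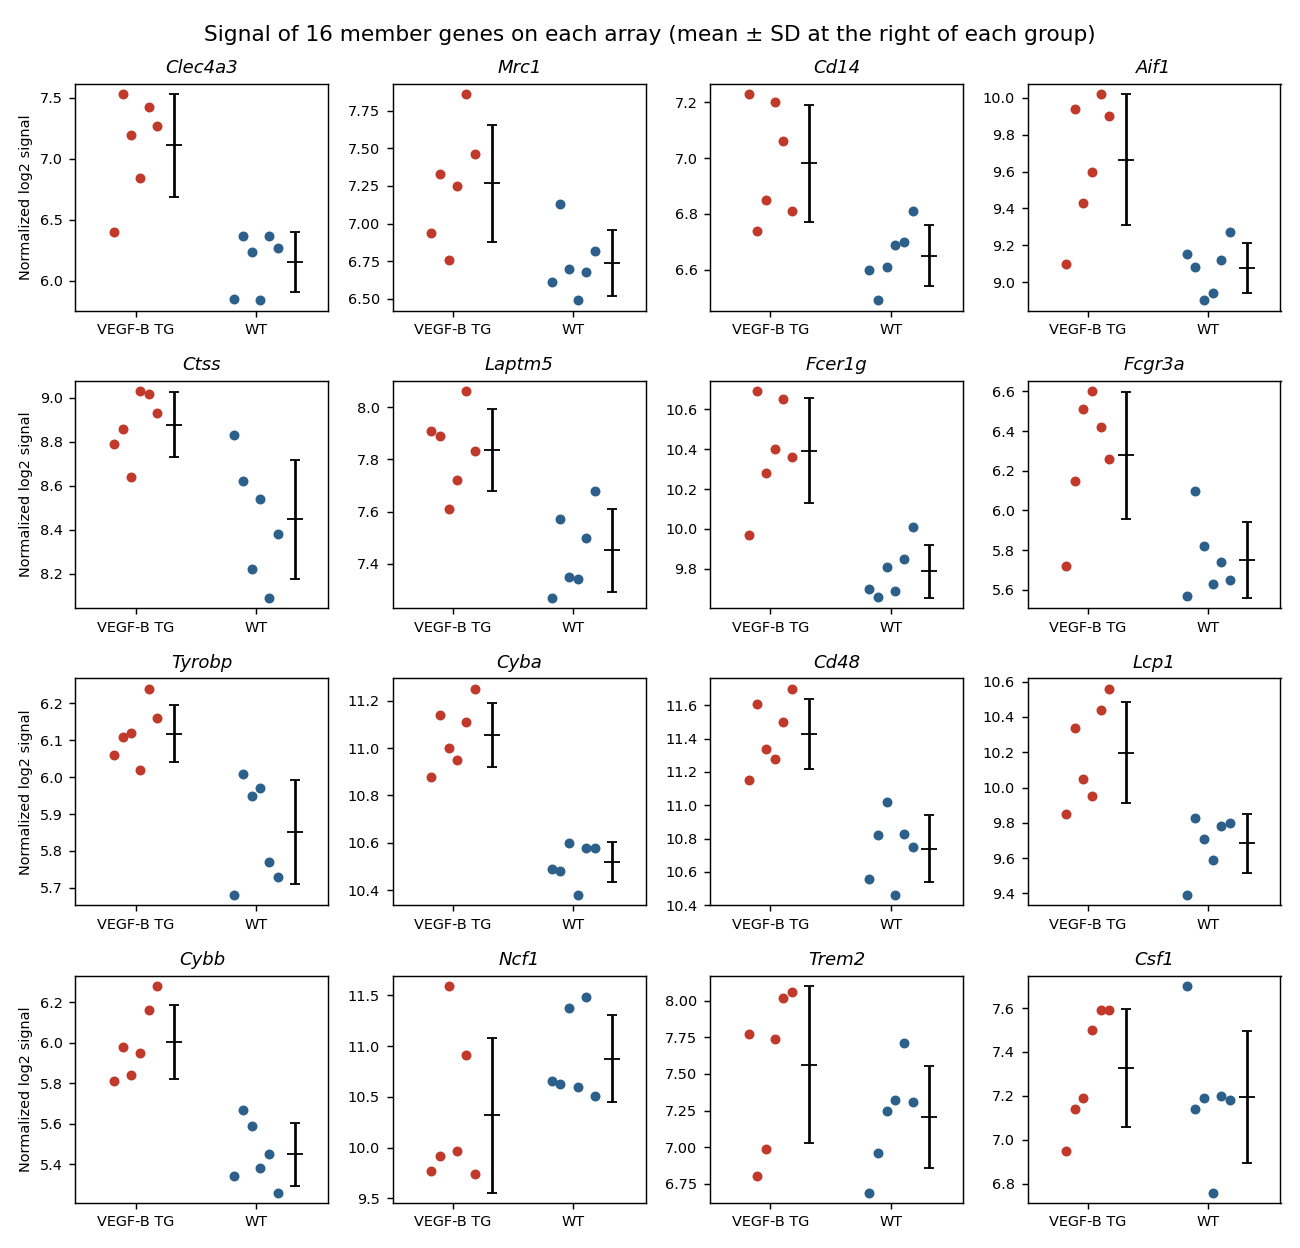
Normalized log2 signal of 16 members on each array, with VEGF-B TG hearts (red) left of WT hearts (blue), replicates 1 to 6 from left to right within a group, and the mean ± SD of the 6 hearts in black at the right of each group. Each panel has its own axis. TG and WT hearts do not overlap in Clec4a3, Tyrobp, Cyba, Cd48, Lcp1 and Cybb, while Ncf1 shows replicates 3 and 5 above the others in both groups.

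The phagocyte NADPH oxidase, which makes superoxide at the membrane, did not move as a unit. Cyba encodes the membrane subunit p22phox, which cells other than phagocytes also use. It read 10.88, 11.06 and 11.25 in TG hearts, against 10.38, 10.53 and 10.60 in WT hearts. The groups were fully separated, and this was the smallest adjusted p of the 19 members (0.54 ± 0.07, 1.45-fold, adjusted p = 1.63e-04).

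Cybb encodes gp91phox, the catalytic subunit that pairs with p22phox in phagocytes. It was detected in 4 TG hearts and 0 WT hearts and so fell short of the requirement for the test. Its measured signal was 5.81, 5.96 and 6.28 in TG hearts and 5.26, 5.42 and 5.67 in WT hearts, without overlap. Because no WT heart was well above background, the difference is only a bound, at least 1.02-fold, with each WT heart set to the lowest detected signal of its array or to its own signal, whichever was higher. The fit over all 22517 probes, which takes the WT signals as measured, gave an adjusted p of 0.00183.

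Ncf1, the cytosolic organizer subunit p47phox, went the other way without passing the test. It read 9.77, 9.92, 11.59, 9.97, 10.91 and 9.74 in TG replicates 1 to 6, against 10.66, 10.63, 11.37, 10.60, 11.48 and 10.51 in WT replicates 1 to 6. Replicates 3 and 5 were high in both groups, and the other 4 TG hearts lay below all WT hearts. The difference was -0.56 ± 0.30 (adjusted p = 0.206). Without TG replicate 3 it passed the test as lower in TG hearts (-0.81, adjusted p = 0.0231).

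Rac2, the hematopoietic GTPase that activates the oxidase, read 10.16, 10.41 and 10.75 in TG hearts and 9.98, 10.23 and 10.33 in WT hearts. Its difference of 0.26 ± 0.09 narrowly missed the threshold (adjusted p = 0.0638). It passed in 7 of the alternative settings, among them no background correction (adjusted p = 0.0405), and without TG replicate 6 (adjusted p = 0.0219). The cytosolic subunit gene Ncf4 was detected on no array.

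General leukocyte genes were higher in 2 of 4 tested cases, beside 11.6% of all tested probes. Cd48, a surface ligand of the SLAM family found on most leukocytes, read 11.15, 11.42 and 11.70 in TG hearts, against 10.46, 10.78 and 11.02 in WT hearts. Every TG heart exceeded every WT heart (0.69 ± 0.11, 1.61-fold, adjusted p = 5.15e-04). Lcp1, the leukocyte actin-bundling protein L-plastin, read 9.85, 10.19 and 10.56 in TG hearts and 9.39, 9.75 and 9.83 in WT hearts. The lowest TG heart lay just above the highest WT heart (0.51 ± 0.12, 1.43-fold, adjusted p = 0.00841).

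Coro1a, an actin regulator of leukocytes, overlapped between groups, at 7.44, 7.80 and 7.96 in TG hearts and 7.30, 7.54 and 7.98 in WT hearts (0.13 ± 0.13, adjusted p = 0.493). Cd37, a tetraspanin of B cells and other leukocytes, read 6.11, 6.26 and 6.69 in TG hearts and 5.87, 6.14 and 6.42 in WT hearts (0.21 ± 0.12, adjusted p = 0.214). Neither difference passed the test. Ptprc, the gene of the pan-leukocyte antigen CD45, was detected in 1 TG heart and 0 WT hearts. Lst1, a transcript of myeloid cells, was detected in 4 TG hearts and 1 WT heart, and the tetraspanin gene Cd53 on no array.

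No lymphocyte chain and no leukocyte integrin could be tested. Cd3e, a signalling chain of the T cell receptor complex, was detected in 3 TG and 2 WT hearts, and Cd79b, a signalling chain of the B cell receptor, also in 3 TG and 2 WT hearts. Cd4, the co-receptor of helper T cells that rat macrophages also carry, was detected in 3 TG hearts and 1 WT heart. Cd3d, Cd8a and Itgam, the alpha chain of the integrin Mac-1, were detected on no array.

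Over the 16 members that were not tested, 9 were detected in more TG than WT hearts, 0 in more WT than TG hearts, and 7 on no array. TG arrays detected 8820 to 9655 probes in all and WT arrays 8452 to 9251. The same count over all untested probes was not made, so the 9 have no background share beside them. Lst1 was among the 9 although its difference was -0.01. The measured differences of the 16 members lay between -0.14 and 0.56 on the log2 scale, and 14 of the 16 were positive. The share of positive differences over all untested probes was not counted either, so the 14 also stand without a background share. In the fit over all probes 1 of the 16, Cybb, was higher at an adjusted p under 0.05, beside 4.49% of 22517 probes. At an unadjusted p under 0.05 there were 3, with Cybb and Cd8a higher and Itgam lower in TG hearts. The share of all untested probes under this threshold was not counted.

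The hearts of a group were not equally high over the 19 tested members. Their mean log2 signal was 8.40 ± 0.136 in TG hearts (SD, n = 6, from 8.19 to 8.62) and 8.04 ± 0.0686 in WT hearts (SD, n = 6, from 7.94 to 8.11). Each TG heart lay above each WT heart in this mean. It includes Fcgr3a, Tyrobp and Clec4a3, which met the detection requirement mainly through the TG hearts. TG replicate 1 was the lowest TG heart in 10 of the 19 members and TG replicate 5 had the highest mean, 0.22 above that of its group. Without TG replicate 1, the number of members called higher stayed at 12 and the number without overlap was 8 instead of 5. Leaving out WT replicate 6 also gave 8 members without overlap. With an array left out, separation is easier to reach for every probe. The share of all probes without overlap is not given for these settings, so both counts stand without a background share.

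By role, the mean log2 signal of the surface receptors was 7.11 in TG and 6.70 in WT hearts, and that of the lysosomal and cytoplasmic genes 8.79 in TG and 8.33 in WT hearts. In both roles all 6 TG hearts lay above all WT hearts. The difference of 0.41 for the surface receptors was 0.21 without background correction and in the deposited log2 table. Under the strict filter (detection p under 0.01 on all 12 arrays) the difference was 0.12. That filter leaves out Clec4a3, Mrc1 and Cd14 and keeps Trem2 and Gpnmb, which were not called. The 0.12 therefore covers fewer genes than the 0.41. The genes of Fc receptor signalling averaged 7.60 in TG and 7.13 in WT hearts, and the general leukocyte genes 8.93 in TG and 8.54 in WT hearts, with 5 TG hearts above all WT hearts in each. The oxidase genes averaged 10.61 in TG and 10.53 in WT hearts, with 2 TG hearts above all WT hearts. These means are descriptions, since the members were chosen with results of these data known. The mean of Fc receptor signalling includes Fcgr3a and Tyrobp, and that of the surface receptors Clec4a3. These genes met the detection requirement mainly through the TG hearts.

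**Figure D4:**
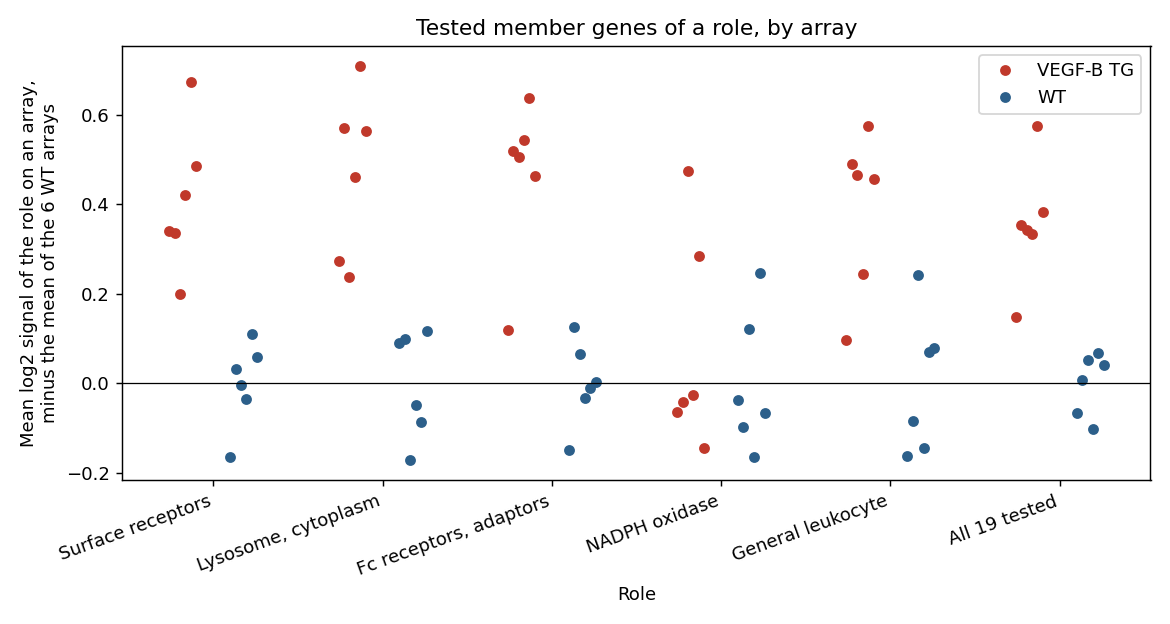
Mean normalized log2 signal of the tested members of each role on each array, shown as the difference from the mean of the 6 WT arrays, with VEGF-B TG hearts (red) left of WT hearts (blue). All 6 TG hearts lie above the WT hearts for the surface receptors, the lysosomal and cytoplasmic genes and all 19 tested members, and 2 of 6 for the NADPH oxidase.

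Markers of other cell types were read beside the members. Some endothelial genes were higher too. Of 12 tested endothelial genes, 7 were higher by at least 1 probe and 0 lower, beside 11.6% higher and 10.3% lower over all tested probes. Their summed linear signal was 13734 to 16544 in TG hearts and 8628 to 10890 in WT hearts, without overlap. Among these genes, Sox18 was 1.07 ± 0.15 higher (adjusted p = 2.54e-04) and Emcn 0.65 ± 0.07 higher (adjusted p = 1.96e-05). Of the 13 tested endothelial probes 5 were not called. These were Tek (0.19 ± 0.10), Cldn5 (-0.24 ± 0.25), Erg (-0.09 ± 0.12), Flt1 (-0.002 ± 0.09) and Vwf (0.04 ± 0.10, adjusted p = 0.831). Robo4 was detected on no array. Of 10 fibroblast genes, 0 were higher and 1, Pdgfra, was lower. Of 13 cardiomyocyte probes, 0 were higher and 2, of Ryr2 and Myl2, were lower. The part of these cell types in the members' differences was not tested.

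Blood in the ventricle was read through erythroid genes, of which 0 of 5 tested were called. Their summed linear signal overlapped between groups, at 43762 to 56591 in TG hearts and 38644 to 55021 in WT hearts, and Hbe1, Hba-a2 and Epb42 were detected on no array. Their mean log2 signal was lowest in TG replicate 1 (9.71) and highest in TG replicate 5 (10.34) among TG hearts, the same hearts that were lowest and highest over the members. Among WT hearts it was lowest in replicate 4 (9.57) and highest in replicate 5 (10.23), again the same hearts as for the members. TG replicate 1 and WT replicate 4 also had the fewest detected probes of their groups, 8820 and 8452. The most were in TG replicate 6 (9655) and WT replicate 2 (9251). The part of blood or of detection in the members' spread between hearts was not tested.

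Macrophage and leukocyte genes outside the 40 were counted from 2 further lists. Of 18 tested genes of macrophages and monocytes, 3 were higher and 0 lower, and the median difference was 0.22. These were Folr2, the folate receptor of resident macrophages (0.69 ± 0.11, adjusted p = 6.62e-04), Tlr2, a receptor for bacterial lipopeptides that was detected in 6 TG and 3 WT hearts (0.58 ± 0.10, adjusted p = 0.00123), and the lectin gene Clec10a (0.31 ± 0.09, adjusted p = 0.0242). Genes of this list that did not pass included Lyve1, a marker of vessel-associated macrophages and lymphatic endothelium (0.28 ± 0.15, adjusted p = 0.201), and the chemokine receptor gene Ccr2 of recruited monocytes (-0.06 ± 0.10, adjusted p = 0.702). The share of 3 in 18 stands beside 11.6% over all probes and is near it.

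Of 10 tested general leukocyte genes, 4 were higher and 1 was lower, beside 11.6% higher and 10.3% lower over all tested probes, with a median difference of 0.26. The hyaluronan receptor gene Cd44, detected in 6 TG and 4 WT hearts, was 0.46 ± 0.11 higher (adjusted p = 0.00684). Gmfg, a regulator of actin branching in leukocytes, was 0.41 ± 0.10 higher (adjusted p = 0.00871). Was, the actin regulator lost in Wiskott-Aldrich syndrome, was detected in 6 TG and 4 WT hearts and was 0.49 ± 0.13 higher (adjusted p = 0.0129). Of the 22 genes of this list on the array, 6 were detected on all 12 arrays, among them Gmfg and Ptpn6 but not Cd44 and Was. Ptpn6, an inhibitory phosphatase of leukocytes, was lower (-0.40 ± 0.12, adjusted p = 0.0243).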

How the data were processed

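The authors read bead intensities with GenomeStudio and deposited them without normalization, with a detection p-value per probe and array. They also deposited log2 values that were quantile normalized in Chipster. Versions were not given in the sources used here. From the deposited intensities, background was estimated from the detection p-values (neqc of limma 3.58.1, R 4.3.3, offset 16), followed by quantile normalization and log2. The 9054 probes detected (p under 0.05) in 6 or more of the 12 hearts were fitted with lmFit and eBayes, and p-values were adjusted by Benjamini-Hochberg over them, with a threshold of 0.05. Groups and replicate numbers came from the sample titles, and each heart was 1 replicate. On simulated data with 9054 probes, 200 of them changed, the fit recovered 34.3%, 83.6% and 97.0% of changes of 0.3, 0.6 and 1 (log2). In the hearts more probes were called, 1050 higher and 931 lower, so recovery there can differ from the simulated one. The number of arrays limits the precision. Probes were named from the platform annotation, which names no genome build.

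The members, lists and tests were chosen with earlier results of these data known. All members with a tested probe were named with values, the others with the arrays detecting them, and up to 3 called genes of each further list. Genes named beyond this, such as Vwf, Lyve1, Ccr2, Was, Ptpn6, Tpsb2, Camp and S100a8, were chosen after their values were seen. The values of 1 called gene of the general leukocyte list are not reported here. Alternatives covered background correction, normalization, the log2 table, the filter, the variance model, array weights, replicate blocks, the threshold, probe averaging and leaving out each array. Figures were drawn with matplotlib 3.10.9.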

Additional observations from a re-analysis of the deposited data

How the results depend on the processing

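The 12 members called higher numbered 7 at an adjusted p threshold of 0.01. At that threshold 561 of all tested probes were higher (6.2%), instead of 1050 (11.6%). Between 11 and 12 members were higher when single arrays were left out, beside 9.35% to 11.2% of all tested probes. Under the strict filter 8 of 13 tested members were higher, beside 13.4% of the probes tested there. In some settings 13 members were higher, among them array weights (11.5% of all tested probes) and median scaling (10.2%). The 0 members called lower became 1, Ncf1, with the replicate block (-0.557, adjusted p = 0.0141) and ranged from 0 to 1 over single arrays left out, with 1 without TG replicate 3. The 5 members without overlap numbered 3 under the strict filter, which tested 13 members, and between 5 and 8 over single arrays left out. The shares of all probes without overlap in these settings are not given here. The median difference of 0.38 was 0.24 in the deposited log2 table, 0.24 without background correction and 0.16 without a filter, where it covers 35 members, and from 0.34 to 0.47 over single arrays left out. The cause of the lower medians without background correction was not tested. None of the 19 tested members changed sign in any of these alternatives. The labels do not say that replicate numbers pair the hearts. The deviations of same-numbered hearts correlated between -0.145 and 0.227, and 6 of 12 arrays correlated best with their own number. With the replicate block 12 members were higher, and 1024 of all probes were higher instead of 1050. Dim probes carry the weakest evidence, since signal near background limits what a probe can show.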

Other observations

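Mast cell and neutrophil genes were counted as well. Of 6 tested genes, 3 were higher in TG hearts and 0 lower, beside 11.6% higher over all tested probes, and all 3 were genes of mast cells. Kit and Tpsab1 entered the test mainly through the TG hearts, and of the 2 genes detected on all 12 arrays, Cpa3 and Cma1, 1 was called. Kit, the stem cell factor receptor, which cells other than mast cells also carry, was detected in 6 TG hearts and 1 WT heart (0.44 ± 0.09 on the log2 scale, adjusted p = 0.00229). The mast cell protease genes Cpa3 (0.52 ± 0.15, adjusted p = 0.0246) and Tpsab1 (0.58 ± 0.19, adjusted p = 0.0452, detected in 6 TG and 3 WT hearts) were also higher. Their relatives did not pass the test, with Cma1 at 0.49 ± 0.23 (adjusted p = 0.143) and Tpsb2 at -0.06 ± 0.20 (adjusted p = 0.863). Of the neutrophil genes, Camp differed by -0.22 ± 0.12 (adjusted p = 0.221), and S100a8 was detected in 0 TG hearts and 3 WT hearts and was not tested. The summed linear signal of the 6 genes was 372 to 833 in TG hearts and 338 to 470 in WT hearts, and it overlapped between groups.

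Of 5 tested genes of T and NK cells 0 were called in the limma fit, and 0 had an unadjusted p under 0.05. The largest difference was that of the chemokine gene Ccl5 (0.30 ± 0.17, adjusted p = 0.229). Lck, the T cell tyrosine kinase, was detected in 4 TG hearts and 0 WT hearts and was not tested. None of the 7 genes of B cells on the array could be tested, and 6 of them, among them Pax5 and Ms4a1, were detected on no array.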
